A study of Zea mays with 6 samples.

Results

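The genes described here are abundant transcripts of the young maize tassel whose level was moderately lower in Bif1;Bif4 mutants. A gene was taken when its mean over the 6 libraries was at least 1000 normalized counts (reads divided by a size factor for each library), when its ratio of Bif1;Bif4 to wildtype means (each mean plus 1) lay above 0.5 and up to 0.71, and when its highest Bif1;Bif4 value was below its lowest wildtype value. Of 39305 genes in the table, 6488 reached that mean. The rule also leaves out 4 genes by name, and 125 genes met it. The members were thus chosen by the level and the genotype difference measured in these same 6 libraries, so their difference is given as a description, with its error and without a test.

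The series measured messenger RNA in developing tassels, the male inflorescence of maize, from greenhouse plants in the B73 inbred background. Tassels of 2 to 4 mm were pooled, with 5 tassels in each of 3 wildtype libraries and 10 in each of 3 libraries of double heterozygous Bif1;Bif4 plants, here also called the mutant. Both Barren inflorescence mutations are dominant, and the affected genes encode Aux/IAA proteins, which repress the auxin response. The labels name no allele and no batch, and do not say whether the pools were grown apart, so the spread between libraries may be partly technical. Reads counted in genes, recovered from the value of a single read in each library, came to 21047225 to 24636859 in the 5 libraries other than Bif1;Bif4 replicate 2. In that library the value lies near 1, and a check of units did not accept it.

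In the inflorescence, auxin sets where branches and spikelets form, and new primordia grow by cell division. Dividing cells must build new nucleosomes from core histones, close them with linker histone H1, and regulate division through cyclins and kinases such as WEE1. Cytokinin receptors, homeobox proteins and MADS proteins act in meristems and young organs, and wall proteins and aquaporins take part in cell expansion.

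Of the 125 genes, 23 have an informative name, and these include genes of chromatin, of the cell cycle, of cytokinin perception, of transcription and of the cell wall. Among the named genes with the highest levels were those for histone H2A (his2a1), a hydroxyproline-rich wall glycoprotein (HRGP), histone H2B (his2b2) and linker histone H1 (hon101). All 5 named core histone identifiers and hon101 had their highest value of all in wildtype replicate 2 and their lowest in Bif1;Bif4 replicate 2. By contrast, the chromatin gene nfd106, the WEE1 kinase gene, the protein disulfide isomerase gene pdi2 and the epidermal gene ocl4 had less spread within each genotype than these histone genes.

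Wildtype replicate 2 stood apart from the other libraries. The genotypes separated on the first principal component, which held 48.2% of the variance over the tested genes, and that library lay at -57.2 on the second (24.4%), where the other 5 ran from -14.9 to 29.4. Of the mutated genes, BIF1 averaged 739 ± 84.7 normalized counts in wildtype and 197 ± 61.1 in the mutant (SD, n = 3 in each group, limma adjusted p = 0.0029). BIF4 averaged 367 ± 32.9 and 220 ± 64.98 and did not pass (limma adjusted p = 0.086). Markers of inflorescence tissue were present, with 11 of 11 matched genes tested, 7 of them lower with limma (a linear model on log2 values, adjusted p under 0.05), and a median log2 fold change of -1.15, with 9 of the 11 below 0. Their summed level, 18618 to 22832 in wildtype and 17412 to 21497 in Bif1;Bif4, overlapped between the genotypes. The ratios of single markers ran from 0.0026 to 2.06, so the sum does not describe each of them. Markers of photosynthesising leaf were low, with 2 of 17 at 0 in all libraries and sums of 429 to 658 and 517 to 699, and the 3 markers of pollen and tapetum summed to at most 10.1. The 3 secondary wall markers summed to 8.25 to 43.9 in wildtype, highest in replicate 2, and 24.3 to 31.8 in the mutant. Whether the genotypes held different mixtures of cells was not tested, and in bulk samples fewer cells of a type cannot be told apart from less RNA per cell.

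The members spanned means from 1005 to 20976 normalized counts, with a median of 2297. Of the 125, 74 had a mean of at least 2000, 19 of at least 5000 and 5 of at least 10000. Together they took 2.19% ± 0.296 of all normalized counts in wildtype and 1.37% ± 0.162 in Bif1;Bif4 (SD, n = 3 in each group). By library the share was 1.96%, 2.52% and 2.08% in wildtype replicates 1 to 3 and 1.44%, 1.18% and 1.48% in Bif1;Bif4 replicates 1 to 3. The highest share was that of wildtype replicate 2 and the lowest that of Bif1;Bif4 replicate 2.

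The ratios had a median of 0.641 and were densest near the upper limit, with 9 genes up to 0.55, 24 from there to 0.6, 40 from there to 0.65 and 52 above 0.65. Just inside the lower limit were GRMZM2G346113 (0.501) and GRMZM2G153977 (0.503), and just outside it GRMZM2G105364 (0.490) and the expansin gene expa2 (GRMZM2G105844, 0.491). At the upper limit GRMZM2G019317 and GRMZM2G366659 (both 0.709) were inside, and GRMZM2G012391 and GRMZM2G356034 (both 0.712) outside. By mean level, GRMZM2G099295 and GRMZM2G165044 (both 1005) were inside and GRMZM2G154278 (996) and GRMZM2G178014 (992) outside. A further 14 abundant genes had a ratio in the range but overlapping groups. The distance between the groups varied among the members, with the lowest wildtype value from 1.003 to 1.76 times the highest Bif1;Bif4 value and a median of 1.21. It was at least 1.2 times in 65 members and under 1.1 times in 21.

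**Figure D1:**
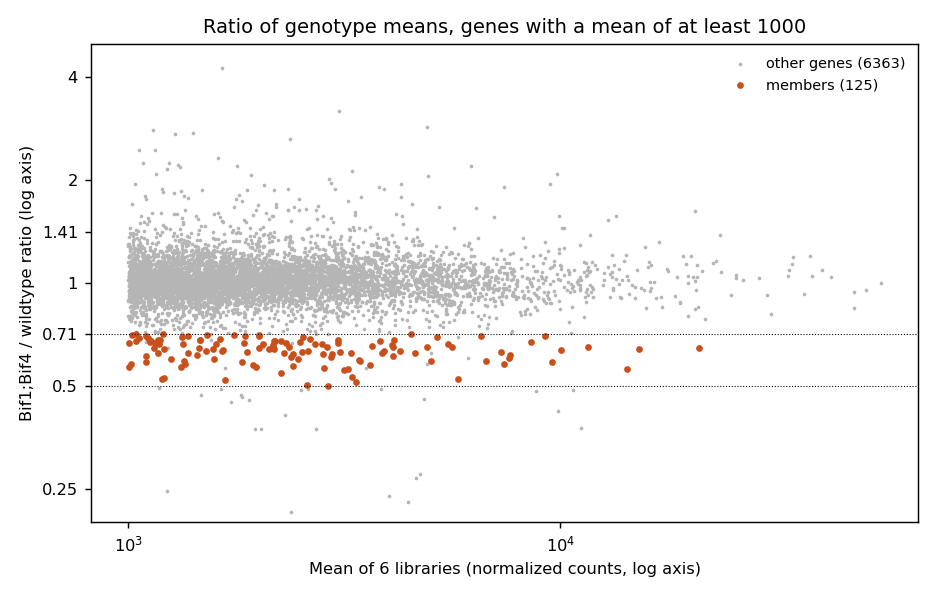
Ratio of the Bif1;Bif4 to the wildtype mean (log axis) against the mean of the 6 libraries in normalized counts (log axis) for genes with a mean of at least 1000, where 3 of the other genes lie outside the plotted range. The 125 members (orange) fill the band between the dotted lines at 0.5 and 0.71, below the body of genes around a ratio of 1.

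The rule required groups that did not overlap, with Bif1;Bif4 lower, and 12.5% of the 6488 abundant genes had them, while Bif1;Bif4 was higher without overlap for 15.3%. The mirror-image rule, for abundant genes higher in Bif1;Bif4 by the same factors, took 89 genes. On the log2(value + 1) scale the members had a median fold change of -0.65, beside 0.01 over all 21924 genes tested and 0.02 over the abundant ones. With limma at an adjusted p under 0.05, 60 of the 125 members were lower, beside 2.91% of all genes tested, and since this comparison chose the members nothing is read from that count. Without Bif1;Bif4 replicates 1, 2 or 3 it was 37, 31 and 39, and without wildtype replicate 3 it was 38. In the authors' deposited table, 120 of the 125 were lower at an adjusted p under 0.05, as were 4.83% of the genes with an adjusted p there. The 5 others were hon101, the H4 gene GRMZM2G149178, GRMZM2G013986, GRMZM2G121221 and AC233865.1_FG001, named after their values were seen.

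Chromatin genes were the largest named group. The histone H2A gene his2a1 (GRMZM2G305046), the most abundant member of all, was at 23749, 30796 and 21998 normalized counts in the wildtype pools, replicates 1 to 3 in order, and 17515, 13823 and 17978 in the mutant pools, an order kept for every gene. The histone H2B gene his2b2 (GRMZM2G119071) measured 7896, 11687 and 8826 in the wildtype pools and 6149, 4398 and 6907 in the mutant pools. Both genes were highest in wildtype replicate 2 and lowest in Bif1;Bif4 replicate 2, and the ratios were 0.644 and 0.614, with log2 fold changes of -0.63 (SE 0.15) and -0.71 (SE 0.21). Leaving out wildtype replicate 2 gave 0.719 and 0.696.

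Histone H3 and H4 genes showed the same order of libraries. For H3C2 (GRMZM2G401581), of histone H3, the values were 2401, 3054 and 2382 in wildtype and 2090, 1365 and 1833 in Bif1;Bif4, a ratio of 0.675 and a log2 fold change of -0.58 (SE 0.17). The H4 identifier GRMZM2G149178 measured 2946, 4865 and 3069 in the wildtype pools and 2262, 1342 and 2532 in the mutant pools (ratio 0.564), and GRMZM2G181153 had 2542, 3350 and 2671 against 1987, 1207 and 2362 (ratio 0.649). Their log2 fold changes were -0.84 (SE 0.31) and -0.67 (SE 0.26). RefSeq joins these 2 identifiers in a single gene, H4C13, so how reads were divided between them is uncertain. A member with 2 RefSeq matches, GRMZM2G084195, matches that gene too and went from 8460 ± 1468 to 4999 ± 972 (SD, n = 3 in each group).

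The linker histone gene hon101 (GRMZM2G080274) measured 7182, 13252 and 7651 in the wildtype pools and 5632, 3963 and 6725 in the mutant pools. Its wildtype replicate 2 value was 1.79 times the mean of the other 2 wildtype values, the widest such gap among the named members. The log2 fold change was -0.76 (SE 0.30), and the ratio of 0.581 became 0.734 without that library, which is outside the limit.

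The full sets of symbols put these members in context. All 6 core histone identifiers with a symbol, which stand for 5 genes because H4C13 has 2, had a negative log2 fold change, with ratios from 0.564 to 0.675, and 5 of them are members, which the rule placed in that range. The other one, his2b5 (GRMZM2G342515), had a ratio near the members' but overlapping groups, at 8327, 9594 and 4919 in wildtype against 4423, 4075 and 5297 in Bif1;Bif4. With limma 0 of the 6 passed over all genes, while 6 had an unadjusted p under 0.05, beside 21.0% of all genes tested, and 5 were lower in the authors' deposited table. Apart from the members, which the same difference chose, these counts come down to 1 and 1, both for his2b5. Without wildtype replicate 3, his2b5 alone passed (log2 fold change -0.97, limma adjusted p = 0.019). Summed over the 6 identifiers, the level was 47862, 63347 and 43864 in wildtype and 34426, 26209 and 36909 in Bif1;Bif4.

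Of the 4 linker histone genes 0 passed with limma and 0 were lower in the authors' deposited table, with 1 at an unadjusted p under 0.05. The most abundant of them, his1a, averaged 20216 ± 2105 in wildtype and 17641 ± 3392 in the mutant, and hon110 and his1 had overlapping groups as well. The median log2 fold change was -0.59 over the 4 and -0.48 over the 3 other than hon101.

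Members of the high mobility group were steadier within each genotype than the named histone members. These proteins bend or bind DNA without forming the nucleosome core. The gene nfd106 (GRMZM2G125648) measured 6395, 6221 and 5761 in the wildtype pools and 4392, 4215 and 4146 in the mutant pools. For nfd106 the log2 fold change was -0.53 with a standard error of 0.07. HMGIY2 (GRMZM2G106133), of the AT-hook kind, measured 4406, 5412 and 4586 in the wildtype pools and 3072, 2704 and 3314 in the mutant pools. For HMGIY2 it was -0.66 with a standard error of 0.11. HMGIY2 kept the order of the histone genes, highest in wildtype replicate 2 and lowest in Bif1;Bif4 replicate 2. In both genes the groups lay well apart, with the lowest wildtype value 1.31 and 1.33 times the highest Bif1;Bif4 value. Of the 9 genes of this kind these 2 were lower and 7 did not pass, among them the most abundant, HMG13, at 51758 ± 7215 in wildtype and 43879 ± 2039 in the mutant. The median log2 fold change was -0.23 over the 9 and -0.16 over the other 7.

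**Figure D2:**
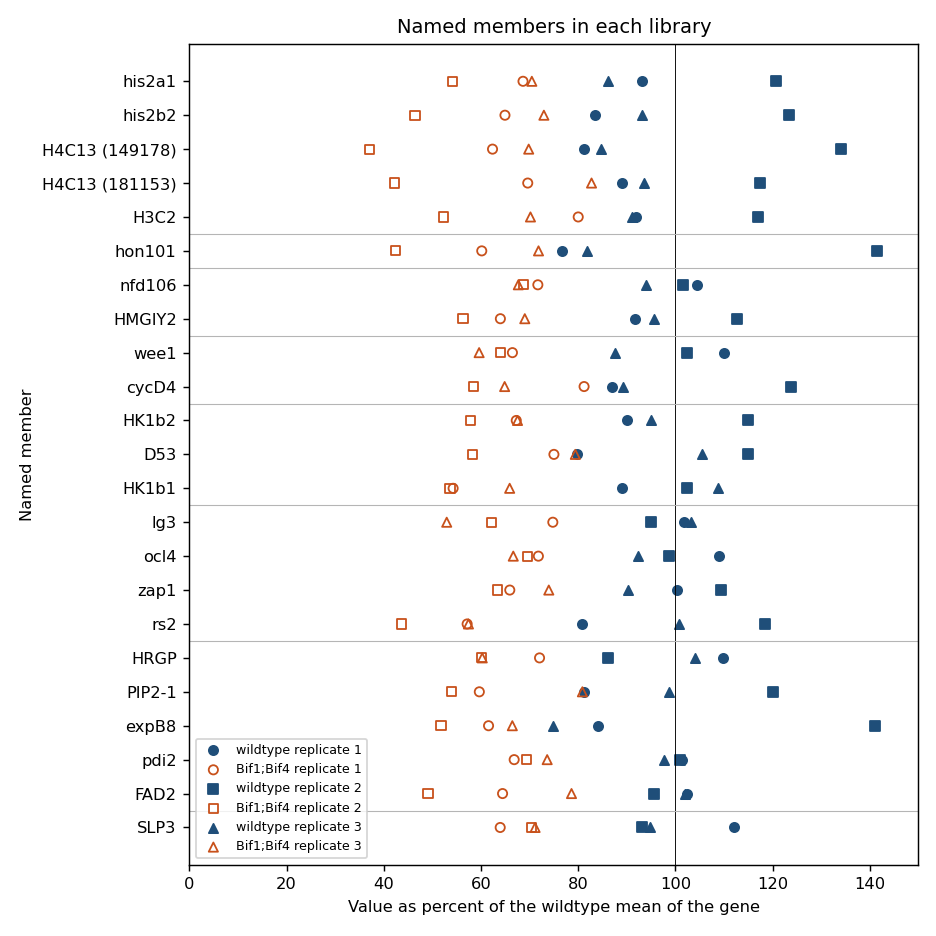
Value of each of the 23 named members in each library as a percent of the wildtype mean of that gene. Filled symbols are wildtype, open symbols Bif1;Bif4, and the symbol shape gives the replicate. Histone genes at the top have wildtype replicate 2 (filled square) far to the right and Bif1;Bif4 replicate 2 (open square) far to the left. The values of nfd106, wee1, ocl4 and pdi2 form 2 groups with less spread than in the histone genes.

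Cell cycle members were wee1 and cycD4. The kinase gene wee1 (GRMZM5G878541), whose product holds back cyclin-dependent kinases, measured 2222, 2071 and 1772 in the wildtype pools and 1344, 1295 and 1205 in the mutant pools. For wee1 the log2 fold change was -0.65 with a standard error of 0.10. The cyclin gene cycD4 (GRMZM2G133413) measured 1213, 1728 and 1244 in the wildtype pools and 1133, 815 and 905 in the mutant pools. For wee1 the groups were well separated, whereas those of cycD4 nearly met, with 1213 against 1133, and for cycD4 the log2 fold change was -0.55 (SE 0.17) and the ratio went from 0.682 to 0.774 without wildtype replicate 2.

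Most other genes of division and DNA replication differed less. Of 31 tested, 3 were lower, 1 was higher and 27 did not pass with limma, and the median log2 fold change was -0.06. Besides wee1, the ribonucleotide reductase gene RNRS2 fell from 618 ± 38.9 to 395 ± 41.4 (SD, n = 3 in each group, limma adjusted p = 0.015) and cyclin11 from 1069 ± 43.6 to 651 ± 148 (limma adjusted p = 0.036). RBR2, a retinoblastoma-related gene, rose from 1006 ± 104 to 1307 ± 46.0 (limma adjusted p = 0.048). Replication genes were nearer to equal, with MCM6 at 4440 ± 536 and 3742 ± 267 and pcna2 at 6276 ± 327 and 5337 ± 380, and neither passed. Without wildtype replicate 1, wee1 was the only gene of these that was lower with limma. As a member it was chosen by this same comparison, so nothing is read from that call.

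Both HK1b genes, for histidine kinase receptors of cytokinin, were members. HK1b1 (GRMZM2G155767) measured 1144, 1315 and 1398 in the wildtype pools and 698, 689 and 847 in the mutant pools. For HK1b1 the log2 fold change was -0.79 with a standard error of 0.11. HK1b2 (GRMZM5G833140) measured 1325, 1693 and 1399 in the wildtype pools and 990, 851 and 994 in the mutant pools. For HK1b2 it was -0.63 with a standard error of 0.11. The groups of each lay at least 1.33 times apart. Near-identical copies can share reads, and how the counting treated them is not given.

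All 6 cytokinin receptor genes with a symbol had a negative log2 fold change, with ratios from 0.580 to 0.913, and the median was -0.28 over the 4 that are not members. The HK1b pair were lower with limma and the other 4 did not pass, with HK1 at 3166 ± 196 and 2598 ± 127 and hk2 at 2329 ± 129 and 2126 ± 213. Without wildtype replicate 3 or Bif1;Bif4 replicates 1 or 2, only HK1b1 was lower, and after centring each library on its median HK1 passed too (limma adjusted p = 0.049). Downstream of the receptors, among 11 phosphotransfer and response regulator genes 0 were lower with limma and 0 in the authors' deposited table. With limma 1 was higher, and 5 had an unadjusted p under 0.05 in either direction, beside the same 21.0%. The higher one, RR10, rose from 552 ± 6.39 to 710 ± 9.78 (limma adjusted p = 0.032), and the median log2 fold change of the 11 was 0.02. Among the other hormone genes, D53 (GRMZM2G109674), named after a rice repressor of strigolactone signalling, measured 1122, 1617 and 1485 in the wildtype pools and 1056, 819 and 1118 in the mutant pools. The groups almost touched, and the log2 fold change was -0.49 (SE 0.17).

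Transcription factor members were rs2, lg3, ocl4 and zap1. The MYB gene rs2 (rough sheath2, GRMZM2G403620), which keeps KNOX genes off in leaf primordia, measured 1279, 1875 and 1594 in the wildtype pools and 905, 690 and 909 in the mutant pools. This was the lowest ratio of a named member, 0.528, with a log2 fold change of -0.92 (SE 0.16). The KNOX gene lg3 (liguleless3, GRMZM2G087741), named for its dominant leaf mutants, measured 3239, 3025 and 3286 in the wildtype pools and 2381, 1979 and 1686 in the mutant pools. For lg3 the log2 fold change was -0.67 with a standard error of 0.12. In both genes the groups lay at least 1.27 times apart, and without wildtype replicate 2 the ratios were 0.581 and 0.618.

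In the class I KNOX family, 5 of 10 genes were lower, 0 were higher and 5 did not pass, with lg3 as the only member and a median log2 fold change of -0.57, or -0.46 without lg3. The gene with the highest level, kn1, did not pass, at 8969 ± 317 and 7247 ± 566.

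The epidermal homeobox gene ocl4 (GRMZM2G123140) measured 3262, 2951 and 2762 in the wildtype pools and 2148, 2083 and 1994 in the mutant pools. For ocl4 the log2 fold change was -0.53 with a standard error of 0.08. Its relatives ocl3 and ocl5 did not pass, with log2 fold changes -0.34 (limma adjusted p = 0.064) and -0.37 (0.074). The gene ocl1 was at 1659 ± 202 in wildtype and 2034 ± 237 in the mutant. Among ocl1, ocl3 and ocl5, the authors' deposited table had 2 lower at an adjusted p under 0.05. The MADS gene zap1 (GRMZM2G148693), of the APETALA1 type expressed in floral organs, measured 2698, 2937 and 2426 in the wildtype pools and 1771, 1701 and 1987 in the mutant pools. For zap1 the log2 fold change was -0.56 with a standard error of 0.09. Both members had groups at least 1.22 times apart.

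**Figure D3:**
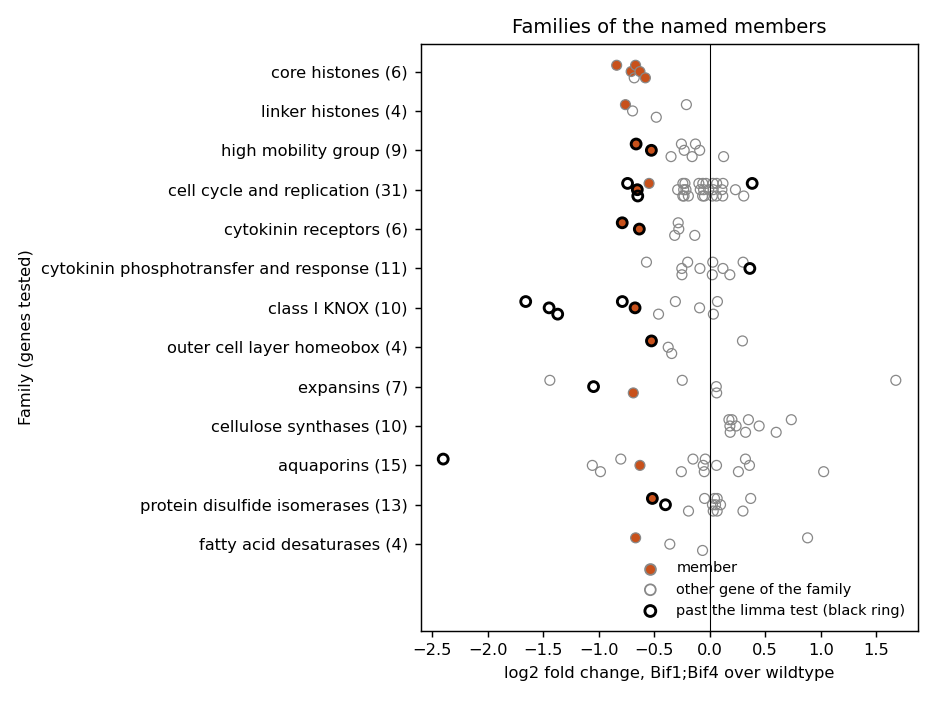
log2 fold change (Bif1;Bif4 over wildtype, on log2(normalized count + 1)) of every tested gene in 13 families that hold a named member or are compared with one. Filled points are members, and a black ring marks genes past the limma test. All 6 core histone identifiers and all 6 cytokinin receptors lie left of 0, the 10 cellulose synthase genes lie right of it, and most cell cycle genes lie near it.

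Members of the cell wall and membranes differed in how they varied. HRGP (GRMZM2G168651), for a structural wall glycoprotein, measured 20306, 15950 and 19239 in the wildtype pools and 13328, 11109 and 11147 in the mutant pools. For HRGP the log2 fold change was -0.64 with a standard error of 0.12. Here wildtype replicate 2 was the lowest of its group, and the ratio without it was 0.60. A second gene with this symbol, GRMZM2G099780, was at 1366 ± 14.7 and 1357 ± 23.6.

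The beta-expansin gene expB8 (GRMZM2G013002), for a wall-loosening protein, measured 2594, 4353 and 2307 in the wildtype pools and 1899, 1597 and 2050 in the mutant pools. With a log2 fold change of -0.69 (SE 0.25), its wildtype replicate 2 value was 1.78 times the mean of the other 2, and without it the ratio rose from 0.599 to 0.754, outside the limit. Of 7 expansin genes 1 was lower with limma, expa2, from 3498 ± 205 to 1718 ± 364 (limma adjusted p = 0.011), and 6 did not pass. Cellulose synthase genes, which hold no member, had positive log2 fold changes in all 10 tested, with a median of 0.28. With limma 0 of them passed, and 0 were lower in the authors' deposited table. An unadjusted p under 0.05 was found for 2, beside 21.0% of all genes tested.

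The plasma membrane aquaporin gene PIP2-1 (GRMZM2G014914) measured 4831, 7145 and 5874 in the wildtype pools and 3550, 3210 and 4811 in the mutant pools, so that the groups all but met, and the log2 fold change was -0.63 (SE 0.19). Among 15 aquaporin genes 1 was lower, NIP2-1, from 77.4 ± 29.8 to 15.3 ± 10.3 (limma adjusted p = 0.044), and 14 did not pass. The summed level of all aquaporins was highest in wildtype replicate 2, at 16296 against 10343 and 10831, with 8430, 7953 and 11160 in Bif1;Bif4.

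The gene FAD2 (GRMZM2G056252), named after an oleate desaturase of Arabidopsis, was steady in wildtype, at 1960, 1831 and 1955, and varied in Bif1;Bif4, at 1234, 941 and 1506, with a log2 fold change of -0.67 (SE 0.16). A second gene with the symbol fad2, GRMZM2G064701, was at 1446 ± 181 and 1132 ± 189 and did not pass (limma adjusted p = 0.20). The protein disulfide isomerase gene pdi2 (GRMZM2G163421), for a folding enzyme of secreted proteins, measured 2222, 2216 and 2145 in the wildtype pools and 1466, 1521 and 1615 in the mutant pools. The log2 fold change of pdi2 was -0.52 with a standard error of 0.07. Of the 13 isomerase genes 2 were lower, pdi2 and pdi8, 0 were higher and 11 did not pass, with a median of 0.04. SLP3 (GRMZM2G114394) had a mean of 3134 ± 329 in the wildtype pools and 2147 ± 124 in the mutant pools (SD, n = 3 in each group).

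The 102 members with no informative name had means from 1005 to 14288 and ratios from 0.501 to 0.709. With limma 48 of them were lower, beside 2.91% of all genes tested. The same comparison chose them, so nothing is read from that count. Over all members, 86 identifiers matched exactly 1 RefSeq gene, 2 matched more than 1 and 37 matched none. Of the 86, 85 are annotated as protein coding and 1 as a long noncoding RNA. In RefSeq order 0 pairs of members were direct neighbours, and 1 pair lay within 10 genes of each other, GRMZM2G071846 and GRMZM2G026839.

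The order of libraries seen in the histone genes was common among the members. Wildtype replicate 2 was the highest wildtype library for 81 of the 125 members (64.8%), and for 24.5% of the 6363 other abundant genes. Bif1;Bif4 replicate 2 was the lowest of its group for 76 members (60.8%), and for 27.8% of the others. Both held for 56 members (44.8%), and for 8.75% of the others. The rule chose the members from these same values, and how far that choice shaped the order was not tested.

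Within a genotype, the members, chosen from these same values, varied more than other abundant genes, which the rule did not choose. Their median coefficient of variation was 15.3% in wildtype and 13.01% in Bif1;Bif4, against 8.08% and 4.83%. Wildtype replicate 2 was more than 1.2 times the mean of the other 2 wildtype libraries, a limit set after the values were seen, in 61 members (48.8%) and in 6.55% of the other abundant genes. Across the 125 members, the log2 ratio of replicate 2 to the others in wildtype and in Bif1;Bif4 had a Pearson r of -0.34, and -0.19 across the other abundant genes. By rank, the Spearman rho was -0.38 across the members and -0.07 across the other abundant genes. The points share the same 6 libraries and are not independent. How far the choice of members by the rule raised these spreads and ratios was not tested.

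Leaving out wildtype replicate 2, 41 members had a ratio above 0.71 and 1 had a ratio at or under 0.5, with a range from 0.488 to 0.795. Leaving out Bif1;Bif4 replicate 2 put 30 above 0.71, and leaving out any other library put 5 to 10 above it. Without wildtype replicate 2, 79 of the 125 still met all conditions of the rule. That no ratio passed 1 was fixed by the rule, since its groups do not overlap. The part of that library, and of Bif1;Bif4 replicate 2, in the difference between the genotypes was not tested beyond these values.

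**Figure D4:**
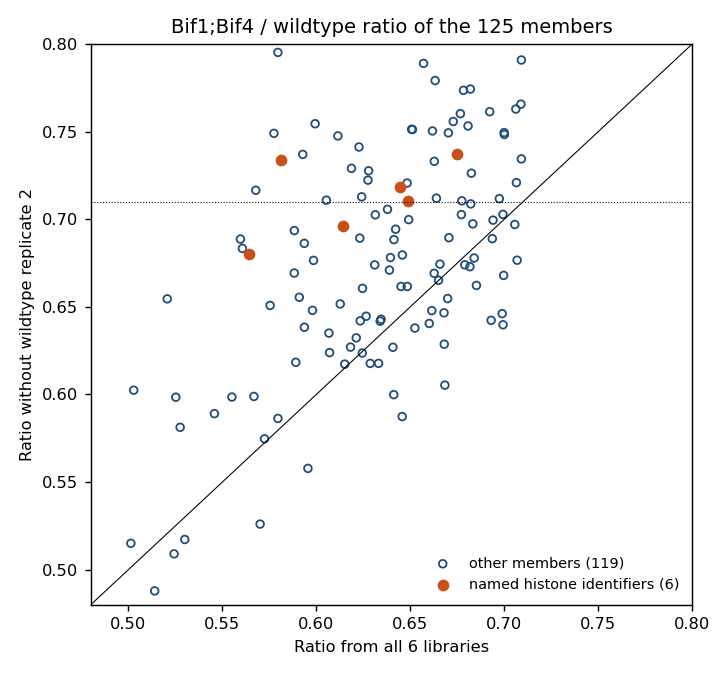
Ratio of Bif1;Bif4 to wildtype means from all 6 libraries (horizontal) and without wildtype replicate 2 (vertical) for the 125 members, where the solid line marks equal ratios and the dotted line 0.71. The 6 named histone identifiers (orange) lie above the solid line, and 41 members lie above the dotted line.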

How the data were processed

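The submitters' processing notes list TopHat2 2.1.1, Trimmomatic, HTSeq and DESeq2. The sources used here state neither their order nor a genome build, annotation or strand setting. For every gene the deposited table has a value per library, which is a read count over that library's size factor as computed by the authors, and is treated here as a signal. It also has the authors' log2 fold change, a Wald score, and a p-value with its adjusted form. Values were whole multiples of a step per library (100.0% within 0.001), taken as the value of a read and used for the read totals of 5 libraries. A limit of 3 reads for a 0 is 2.75 to 3.30 normalized counts, for counting error only.

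Genes with at least 10 in at least 3 libraries were fitted with limma 3.58.1 (trend, robust, R 4.3.3) on log2(value + 1), two-sided, with Benjamini-Hochberg adjustment over all 21924, and the fit was tested on simulated data. Names came from RefSeq (Zm-B73-REFERENCE-NAM-5.0), used without coordinates. The 25 lists of description words could match symbols only and took 2 members, so they are not used. Families were formed by symbol instead, after the members' names and values were seen, and further symbol patterns were looked at and not kept. Named genes are the members with an informative name and those nearest each limit. The members and lists were chosen with earlier results of these data known. Sequences were not analysed here. Alternatives were median-centring, pseudocounts, filters, the replicate block and leaving out each library. Fits without a library keep the genes of the full fit, a choice made after seeing those counts.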

Additional observations from a re-analysis of the deposited data

How the results depend on the processing

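The counts on families by symbol were chosen after seeing the data. The rule took 130 genes after median-centring, of which 120 were shared with the 125, and 103 to 156 genes when a library was left out. Members lower with limma numbered 60 and ran from 31 to 63 when a library was left out, and genes lower over the whole table ran from 282 to 627 beside 637. Fewer libraries were then fitted. Without wildtype replicates 1 or 3 the whole-table count was 368 and 306, and without Bif1;Bif4 replicates 1 to 3 it was 291, 282 and 336. In the same way 0 to 1 core histone identifiers, 1 to 2 cytokinin receptor genes and 1 to 2 cell cycle genes were lower. The median log2 fold change of the members ran from -0.70 to -0.55. With the replicate number as a block, 57 members and 429 genes were lower, the call of rs2 was lost and a call of FAD2 was gained. The deviations of libraries with the same number had correlations of 0.07, -0.17 and -0.03, so they share only a number. Of the named members and BIF1 and BIF4, 25 of 25 kept their side of the limma threshold with median-centring, both pseudocounts, both filters and without wildtype replicate 2. Calls were lost for 7 without Bif1;Bif4 replicate 2 (HMGIY2, rs2, HRGP, SLP3, zap1, lg3 and HK1b2), 5 without Bif1;Bif4 replicate 1 (HMGIY2, rs2, SLP3, zap1 and HK1b2), 4 without wildtype replicate 3 (rs2, HRGP, lg3 and HK1b2), 3 without wildtype replicate 1 (HRGP, zap1 and lg3) and 2 without Bif1;Bif4 replicate 3 (rs2 and HRGP). The direction of the members is fixed by the rule. The same comparison chose them, so nothing is read from which members kept, lost or gained a call. The planned DESeq2 and edgeR fits on recovered reads, TMM scaling included, were not run, because the step of 0.993 in Bif1;Bif4 replicate 2 lies too near 1 to be relied on as the value of a read. The planned promoter and protein comparisons were not run. Depth limits none of the members, at 1005 normalized counts or more.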
